A study of Mus musculus with 3 samples.

Results

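The regions described here were listed both in a ChIP-seq library of HA-tagged ZFP57 and in a ChIP-seq library of KAP1 from mouse embryonic stem (ES) cells, and lay away from the background of the HA antibody. They were chosen by the positions in the deposited lists: a ZFP57 region was kept if no control region started within 1000 bp of its own start, and if a KAP1 region that was equally clear of the control started less than 150 bp away. This rule took 790 of the 22031 ZFP57 regions, and 797 of the 20870 KAP1 regions stood on the other side of the pairs. They are called shared regions below. In all, 7891 ZFP57 regions were clear of the control, so the shared regions were 10.01% of them (exact 95% interval 9.36 to 10.7%). Of 7096 KAP1 regions clear of the control, 11.2% were shared (10.5 to 12.0%). Both percentages come from the values that defined the set and are given as a description only.

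The study used 3 libraries, with 1 library per group and therefore no replicates. The control was an HA ChIP in ES cells that expressed no transgene, with 45956 regions. The ZFP57 library was an HA ChIP in ES cells expressing HA-tagged ZFP57, and the KAP1 library came from E14 ES cells, again without a transgene, through an antibody to KAP1 (RBCC). The control used the HA antibody, and none of the 3 libraries is a control for the KAP1 antibody. Background particular to the KAP1 antibody was therefore not removed from the KAP1 side of the pairs. The HA antibody thus saw the tagged transgene product and not the cells' own ZFP57, and the ZFP57 and KAP1 lists come from different cells, so a shared region cannot show that both proteins were on the same molecule. The sources used here do not give the promoter or the level of the transgene. Every region was 150 bp wide, carried no score, and its sequencing depth is unknown. Because all widths are equal, a distance between starts is also a distance between midpoints. Coordinates are on mouse build mm9.

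ZFP57 is a zinc finger protein with a KRAB domain, which binds the corepressor KAP1 (TRIM28). KAP1 in turn brings in enzymes that deposit repressive histone marks and helps to keep DNA methylation. ZFP57 is known for holding methylation on the marked parental allele of imprinting control regions, the short CpG-rich elements that make a cluster of genes active from 1 parental copy only. It recognises the hexamer TGCCGC when the CpG in it is methylated.

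No sequence of build mm9 was used here, so the regions themselves are not printed. Promoters of genes at imprinted loci that held shared regions are shown instead, with 1 start site for each of the 7 genes in which the hexamer was found. They are RefSeq sequences of build GRCm38.p6, matched by gene symbol, and run 5′ to 3′ on the strand of the gene from 250 bases before to 50 bases after a start site. Capitals mark TGCCGC, or GCGGCA where the hexamer is on the opposite strand. Where the mm9 regions fall relative to these windows was not determined.
Zdbf2 (chromosome 1): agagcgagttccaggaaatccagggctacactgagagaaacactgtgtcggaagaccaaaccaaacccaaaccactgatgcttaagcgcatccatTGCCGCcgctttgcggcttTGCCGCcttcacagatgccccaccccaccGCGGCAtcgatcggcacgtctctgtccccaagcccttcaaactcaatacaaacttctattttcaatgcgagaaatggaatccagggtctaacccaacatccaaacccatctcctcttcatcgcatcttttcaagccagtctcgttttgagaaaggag
Nap1l5 (chromosome 6): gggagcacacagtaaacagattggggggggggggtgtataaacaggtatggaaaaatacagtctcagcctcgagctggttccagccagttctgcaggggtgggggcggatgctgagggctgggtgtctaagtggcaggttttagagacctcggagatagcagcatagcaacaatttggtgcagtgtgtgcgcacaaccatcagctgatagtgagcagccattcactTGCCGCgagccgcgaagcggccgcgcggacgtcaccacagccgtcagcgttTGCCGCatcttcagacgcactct
Mest (chromosome 6): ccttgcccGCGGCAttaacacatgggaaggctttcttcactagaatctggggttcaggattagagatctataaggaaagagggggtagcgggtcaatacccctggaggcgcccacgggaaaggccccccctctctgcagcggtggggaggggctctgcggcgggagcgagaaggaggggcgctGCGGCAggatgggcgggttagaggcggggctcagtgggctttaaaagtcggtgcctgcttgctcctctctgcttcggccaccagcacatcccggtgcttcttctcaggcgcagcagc
Nnat (chromosome 2): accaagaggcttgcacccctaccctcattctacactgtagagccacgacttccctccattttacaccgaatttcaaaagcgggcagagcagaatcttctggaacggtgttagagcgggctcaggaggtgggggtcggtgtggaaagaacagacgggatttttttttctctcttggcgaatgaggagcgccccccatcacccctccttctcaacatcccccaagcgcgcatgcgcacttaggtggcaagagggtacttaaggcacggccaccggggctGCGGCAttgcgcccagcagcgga
Plagl1 (chromosome 10): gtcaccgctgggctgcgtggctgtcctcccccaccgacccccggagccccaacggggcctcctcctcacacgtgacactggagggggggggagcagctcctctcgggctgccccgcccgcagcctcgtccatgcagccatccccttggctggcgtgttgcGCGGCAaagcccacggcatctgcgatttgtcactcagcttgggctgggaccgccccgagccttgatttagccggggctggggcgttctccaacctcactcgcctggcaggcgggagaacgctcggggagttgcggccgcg
Snrpn (chromosome 7): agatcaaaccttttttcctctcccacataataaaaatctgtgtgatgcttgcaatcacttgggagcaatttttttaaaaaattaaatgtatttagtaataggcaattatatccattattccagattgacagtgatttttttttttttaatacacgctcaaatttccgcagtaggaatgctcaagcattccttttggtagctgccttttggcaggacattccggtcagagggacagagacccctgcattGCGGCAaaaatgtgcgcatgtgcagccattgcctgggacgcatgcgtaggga
Grb10 (chromosome 11): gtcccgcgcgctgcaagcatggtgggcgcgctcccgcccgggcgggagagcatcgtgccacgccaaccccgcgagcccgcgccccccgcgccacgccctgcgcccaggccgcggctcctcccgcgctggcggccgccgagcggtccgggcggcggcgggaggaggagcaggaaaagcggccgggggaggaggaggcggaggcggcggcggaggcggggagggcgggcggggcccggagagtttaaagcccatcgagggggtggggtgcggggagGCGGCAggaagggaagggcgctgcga
The Zdbf2 window holds 3 copies, the Nap1l5 and Mest windows hold 2 each, and the other 4 hold 1. Mest has a second start site with the hexamer, whose window is almost the same. The remaining start sites of these genes in the table, 1 each for Zdbf2, Mest and Grb10 and 3 for Snrpn, had no copy. Of 19 gene symbols looked up for the imprinted loci with shared regions, 15 were found in the table with 26 start sites, and 8 of those start sites, in 7 genes, held the hexamer on either strand. Among all 32851 promoter windows of that length, 11.6% did. Some of the 26 windows overlap each other, at Mest and at Gnas, and the windows were not matched in CpG content, so this is no test. No other motif was searched, and a match is a description of these letters only.

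At imprinted loci the shared regions were pairs about as narrow as in the whole set, and most of the loci had no control region nearby. The rule itself required a KAP1 start less than 150 bp away and no control start within 1000 bp. The mm9 positions of 22 imprinted loci were written from general knowledge of that build, rounded to 1 kb, and not read from an annotation, so the locus names are background and the coordinates below are the measurement. Within 5 kb of these windows lay 27 ZFP57, 47 KAP1 and 11 control regions. Shared regions were found at 17 of the 22, with 23 shared ZFP57 and 26 shared KAP1 regions, and 12 of the 17 held no control region. These loci were named with the lists in view, so the counts are a description and no test. These 23 are 2.91% of the shared ZFP57 regions. From ZFP57 to the closest KAP1 midpoint it was 1 to 142 bp over the 23 regions (median 30 bp), and at most 50 bp for 17 of them. Over all 790 shared regions the median was 28 bp, and 68.7% lay within 50 bp. Taking the closest pair of each imprinted locus, the distance was 1 to 128 bp (median 29 bp), and at most 50 bp at 14 loci.

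**Figure D1:**
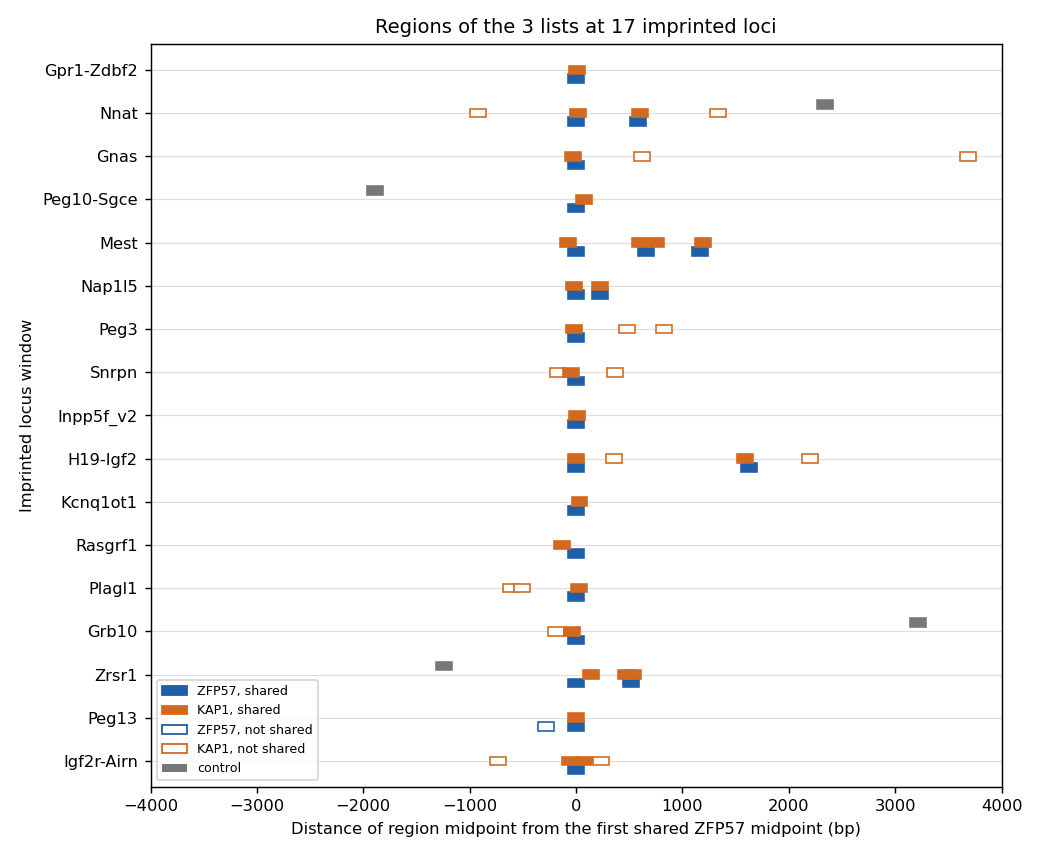
Regions of the 3 lists at the 17 imprinted loci with a shared region, drawn to scale as 150 bp boxes against the distance in bp from the first shared ZFP57 midpoint; filled boxes are shared ZFP57 (blue) and KAP1 (orange) regions, open boxes are other regions of those lists, and grey boxes are control regions. At 10 of the 17 loci KAP1 regions outnumber ZFP57 regions, and boxes beyond 4 kb are not drawn.

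The largest group was at Mest, a hydrolase-like gene expressed from the paternal copy. ZFP57 regions began at 30687583, 30688243 and 30688750 on chromosome 6, and KAP1 regions at 30687506, 30688185, 30688337 and 30688779. All 7 belonged to the shared set, and the nearest control region was 64.4 kb away. On the same chromosome Nap1l5, an intronless gene inside an intron of Herc3, had ZFP57 regions at 58856893 and 58857118 and KAP1 regions at 58856877 and 58857122. The second pair there was 4 bp apart. At the promoter shared by Peg10, a gene derived from a retrotransposon, and Sgce, 1 ZFP57 region began at 4697962 and 1 KAP1 region at 4698038. A control region lay 1.89 kb from that pair.

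Chromosome 7 carried 5 of the loci. Peg3, a zinc finger gene expressed from the paternal copy, had its ZFP57 region at 6682016 and a KAP1 region 16 bp away, with further KAP1 regions at 6682492 and 6682840. At Snrpn, which encodes a small nuclear ribonucleoprotein, the ZFP57 region at 67149651 had the closest KAP1 midpoint 44 bp away, and 3 KAP1 regions lay within 686 bp from first to last base. The Inpp5f variant 2 locus (ZFP57 at 135831494, KAP1 at 135831502) and Kcnq1ot1, a long noncoding RNA that silences its neighbours (150481629 and 150481661), each held 1 region of each library. All 4 of these loci lay between 12.05 and 99.8 kb from the control list. The control region upstream of H19, where the paternal copy is methylated, had ZFP57 regions at 149766107 and 149767734. Its closest pair was 2 bp apart, its 4 KAP1 regions included 2 that were not shared, and the nearest control region was 9.23 kb away.

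Other maternally methylated loci showed the same arrangement of 1 or 2 ZFP57 regions with 1 to 4 KAP1 regions. Nnat, a gene for a small membrane proteolipid in an intron of Blcap, had ZFP57 regions at 157385523 and 157386103 on chromosome 2 and 4 KAP1 regions, with a control region 1.76 kb away. In the Gnas cluster, which encodes the stimulatory G protein alpha subunit, 1 ZFP57 region at 174121611 lay 33 bp from a KAP1 midpoint, and the other 2 KAP1 regions were not paired. Plagl1, a zinc finger gene on chromosome 10, had its ZFP57 region at 12810887 and 3 KAP1 regions, and Grb10, an adaptor of growth factor receptors on chromosome 11, had 1 at 11926253 and 2 KAP1 regions, with a control region 3.21 kb away. Zrsr1, an intronless splicing factor gene on the same chromosome, held 2 ZFP57 regions at 22872329 and 22872849 and 3 shared KAP1 regions. The first lay 142 bp from its KAP1 midpoint and the second 13 bp. With a control region 1.24 kb away it was nearest to the control list among the 17 loci with a shared region. In the intron of Igf2r that carries the start of Airn, a noncoding RNA, the ZFP57 region at 12935203 on chromosome 17 lay among 4 KAP1 regions. Peg13, a noncoding RNA gene on chromosome 15, had ZFP57 regions at 72640174 and 72640454, of which only the second was shared, 1 bp from a KAP1 midpoint.

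Paternal methylation was represented by 3 windows, and 2 of them held shared regions. Besides H19 this was Rasgrf1, a guanine nucleotide exchange factor gene on chromosome 9, where ZFP57 began at 89774701 and KAP1 at 89774573, the widest when the closest pair of each of the 17 loci is compared. In the Dlk1 to Meg3 window on chromosome 12 there was 1 KAP1 region, at 110766618, and no ZFP57 region. The window of Gpr1 and Zdbf2 on chromosome 1, which has elements of both parental origins, held 1 pair 6 bp apart at 63246794.

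The other imprinted windows show where the rule drew its line. At Mcts2, an intronless gene inside H13 on chromosome 2, a ZFP57 region at 152512636 lay 3 bp from a KAP1 midpoint, but a control region began 698 bp from it, so it is outside the set. At Cdh15, a cadherin gene on chromosome 8, ZFP57 came no closer to a KAP1 midpoint than 161 bp. The Impact window on chromosome 18 had 2 KAP1 regions and no ZFP57 region, and the Slc38a4 window on chromosome 15 had none of any list. A region that is not listed may lie just under a threshold, which was not tested.

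Loci were formed by joining shared regions of both lists within 5 kb. This gave 704 loci, of which 632 held 1 shared ZFP57 region, 60 held 2, 10 held 3 and 2 held 4. A single pair, with 1 region of each library, made up 617 loci, and the median span was 184 bp. The imprinted windows accounted for 17 of the loci. Of these 17, 5 held more than 1 shared ZFP57 region (29.4%, exact interval 10.3 to 55.96%), compared with 67 of the other 687 (9.75%, 7.64 to 12.2%). Since the windows were named with the lists in view, this comparison is no test.

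The 12 loci with 3 or more shared ZFP57 regions differed in their surroundings. Only Mest and a locus on chromosome 15 from 72080046 to 72083654 had no control region within 20 kb. That chromosome 15 locus held 3 regions of each library, whose closest midpoints were 58 bp apart, and lay 45.6 kb from the control list. Its ZFP57 regions began at 72080111, 72081808 and 72083505, equally spaced at 1697 bp. Among the rest, the locus at 12947338 on chromosome 13 held 4 shared regions of each library over 6223 bp, with 39 control regions within 20 kb, and the one at 146344634 on chromosome 4 held 4 ZFP57 and 3 KAP1 shared regions with 14. Chromosome 4 had a second such locus at 145292104, the longest of all at 7575 bp, chromosome 5 had 3 (15126419, 26595729 and 146373849), chromosome 13 had 2 more (65753254 and 66131383), and chromosomes 7 (134754815) and X (120799398) had 1 each. At all these 10 loci the nearest control region was between 1.04 and 4.58 kb away.

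By number of shared KAP1 regions the leading loci were those at 12947338 and 65753254 on chromosome 13 and Mest, with 4 each. The 2 chromosome 4 loci named above followed with 3, chosen among 11 loci with that number for their many KAP1 regions within 2 kb (18 and 8). KAP1 regions also stood around many shared pairs without being paired themselves. When every region of the KAP1 list within 2 kb was counted, 165 of the 704 loci had 3 or more.

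Over all distances from the control, 8 of the 17 imprinted loci had 3 or more KAP1 regions within 2 kb (47.1%, exact interval 22.98 to 72.2%), and 157 of the 687 others (22.9%, 19.8 to 26.2%), so the intervals overlap. More than 10 kb from the control list such KAP1 groups were fewer. Of the 12 imprinted loci at that distance, 5 had 3 or more KAP1 regions within 2 kb (41.7%, exact interval 15.2 to 72.3%): Mest, Peg3, Snrpn, Plagl1 and Igf2r. Of the 236 other loci at that distance, 8 did (3.39%, 1.47 to 6.57%). The imprinted windows were named with these lists in view, so the intervals describe counting error and are no test. The 8 others began at 50595830 on chromosome 5, 73524703 on chromosome 8, 7885638 and 79202118 on chromosome 10, 23668810 and 72080046 on chromosome 15, 3099944 on chromosome 19 and 51436759 on X. The locus at 7885638 had the most, with 5 KAP1 regions. The genes at these positions were not analysed here.

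The loci farthest from any control region were single pairs. On the X chromosome, the pair at 25183461 lay 1274 kb and the pair at 110229938 lay 745 kb from the control list, with midpoints 92 and 2 bp apart. They were followed by 82974205 on chromosome 16 (727 kb), 17947149 on chromosome 1 (536 kb) and 24232074 on chromosome 3 (478 kb), with midpoint distances of 38, 37 and 33 bp. None of the 5 had more than 1 KAP1 region within 2 kb. The pair at 25183461 on X had a further ZFP57 region within 2 kb, which was not shared.

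The rule allowed only midpoints less than 150 bp apart, and within that limit the midpoints of paired regions lay close together. Offsets spread evenly over all overlaps would place 33.8% within 50 bp. The median distance from a shared ZFP57 midpoint to the closest KAP1 midpoint was 28 bp, with quartiles of 12 and 65 bp. In 9 pairs both regions had the same start, 169 were within 10 bp, 543 within 50 bp (68.7%, exact interval 65.4 to 72.0%), and 70 were more than 100 bp apart. The KAP1 midpoint had the lower coordinate in 409 pairs and the higher one in 372. A second KAP1 region less than 150 bp away was present for 23 ZFP57 regions, and the other 767 had 1.

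Near and far from the control list the offsets differed by less than their counting intervals. Within 50 bp lay 69.1% of the 521 shared regions that were 1 to 10 kb from a control region (64.9 to 73.0%) and 68.0% of the 269 that were farther away (62.1 to 73.6%), with medians of 28 and 30 bp. The rule itself limited offsets to less than 150 bp. Just inside that limit, 75 ZFP57 regions clear of the control had their KAP1 neighbour 100 bp to just under 150 bp away, and outside it 37 had it between 150 and 200 bp away and 35 between 200 and 250 bp. Below 50 bp there were 538.

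**Figure D2:**
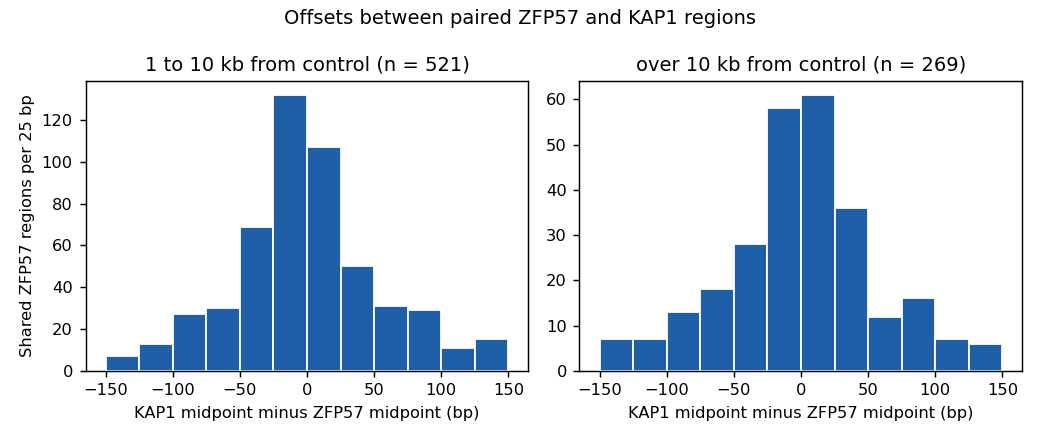
Number of shared ZFP57 regions per 25 bp of signed distance from the ZFP57 to the closest KAP1 midpoint, in bp of genome coordinate, for 521 regions 1 to 10 kb from the control list (left) and 269 farther away (right); the vertical scales differ. In both panels the counts peak at 0 and fall off on both sides.

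The rule removed regions within 1000 bp of the control. Even so, the shared regions lay nearer to the control than the other ZFP57 regions that were clear of it. For the 790 shared regions the nearest control region was a median of 4667 bp away (quartiles 1799 and 17709 bp), and 14188 bp for the 7101 ZFP57 regions that were clear of the control and not shared (4237 and 39035 bp). In the band from 1 to 2 kb, 225 of 1094 ZFP57 regions were shared (20.6%, exact interval 18.2 to 23.1%). From 2 to 5 kb it was 13.9% of 1327 and from 5 to 10 kb 10.3% of 1088. Between 10 and 50 kb it was 5.99% of 2904 (5.16 to 6.92%), and beyond 50 kb 6.43% of 1478 (5.23 to 7.80%). The share thus dropped over the first 10 kb and was level after that within the counting intervals. Regions lie in clusters, so the intervals are narrower than the true uncertainty.

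**Figure D3:**
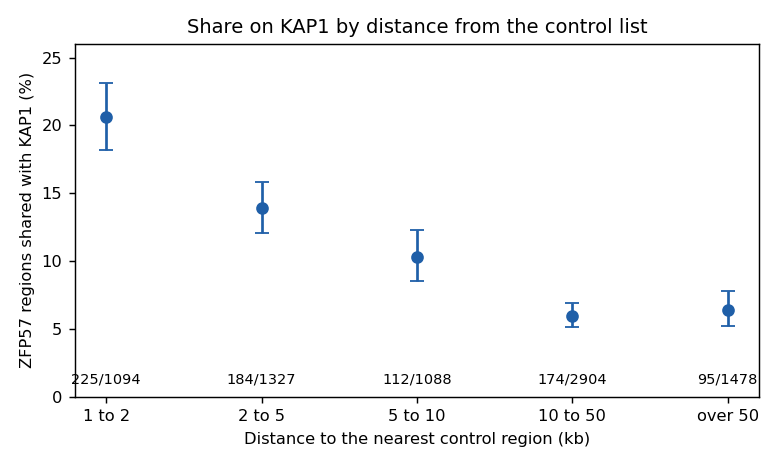
Percentage of ZFP57 regions shared with KAP1 in 5 bands of distance to the nearest control region (kb), with exact 95% binomial intervals and the counts under each point. The value is 20.6% at 1 to 2 kb and 6.43% beyond 50 kb.

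The line at 1000 bp cut through a slope rather than a gap. Of the ZFP57 regions with any KAP1 start less than 150 bp away, 136 had a control start over 750 and up to 1000 bp off, 80 had one up to 250 bp beyond that limit and 71 had one 250 to 500 bp beyond it, against 7681 that overlapped a control region. The nearest control start to any shared region was at 1012 bp.

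Shared regions more often had neighbours than the ZFP57 regions that were clear of the control and not shared, but not more often than the ZFP57 list as a whole. Another ZFP57 region lay within 10 kb of 65.6% of shared regions, of 27.3% of those not shared, and of 67.9% of all 22031 ZFP57 regions, most of which start within 1000 bp of a control region. Within 1 kb the 3 values were 23.8%, 6.52% and 48.2%. For a KAP1 region 150 bp to 2 kb away they were 44.4%, 9.27% and 53.9%, but shared regions were chosen by a nearby KAP1 region.

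Split by distance to the control, the shared regions were above those not shared in both bands. Among those 1 to 10 kb from a control region, 84.8% of 521 shared regions had another ZFP57 region within 10 kb (exact interval 81.5 to 87.8%), compared with 51.2% of 2988 that were not shared (49.4 to 53.0%). Farther than 10 kb from the control, the values were 28.3% of 269 (22.95 to 34.04%) and 9.87% of 4113 (8.98 to 10.8%). Within 1 kb, the corresponding pairs of values were 28.8% and 11.98% near the control and 14.1% and 2.55% away from it. ZFP57 regions beside the same KAP1 region enter the shared set together and then count each other as neighbours. This holds for the 4 chromosome 14 loci of identical layout described below, all over 10 kb from the control. The comparison of ZFP57 neighbours is therefore not independent of the rule.

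These bands are wide, and within the nearer one 225 of the 521 shared regions lay at 1 to 2 kb, so the groups are not matched in distance. In the 5 narrower bands used above, the shared value was the higher one for each of the 3 kinds of neighbour. The intervals were apart in all of these comparisons except for a ZFP57 neighbour within 1 kb at 5 to 10 kb from the control. There it was 8.04% of 112 shared (3.74 to 14.7%) and 5.94% of 976 others (4.54 to 7.61%). Neighbouring regions count each other and lie in clusters, so these intervals are narrower than the true uncertainty and are no test. At 1 to 2 kb, another ZFP57 region within 10 kb was present for 92.4% of shared regions (88.2 to 95.5%) and 72.4% of the others (69.3 to 75.3%), and beyond 50 kb for 22.1% (14.2 to 31.8%) and 6.36% (5.13 to 7.78%).

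KAP1 neighbours other than the partner followed the same order. The rule split these groups by a KAP1 region less than 150 bp away, so this comparison is not independent of it. A KAP1 region 150 bp to 2 kb away was present for 57.6% of shared and 18.8% of other regions at 1 to 10 kb from the control, and for 18.96% (14.5 to 24.2%) and 2.36% (1.92 to 2.87%) beyond 10 kb. At the other extreme, 153 shared regions stood alone, with no region of any list within 10 kb apart from their KAP1 partner. They were 56.9% of the 269 shared regions beyond 10 kb (50.7 to 62.9%), against 85.2% of the 4113 others there (84.1 to 86.3%). Whether reads from repeated sequence account for part of these groups was not tested.

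**Figure D4:**
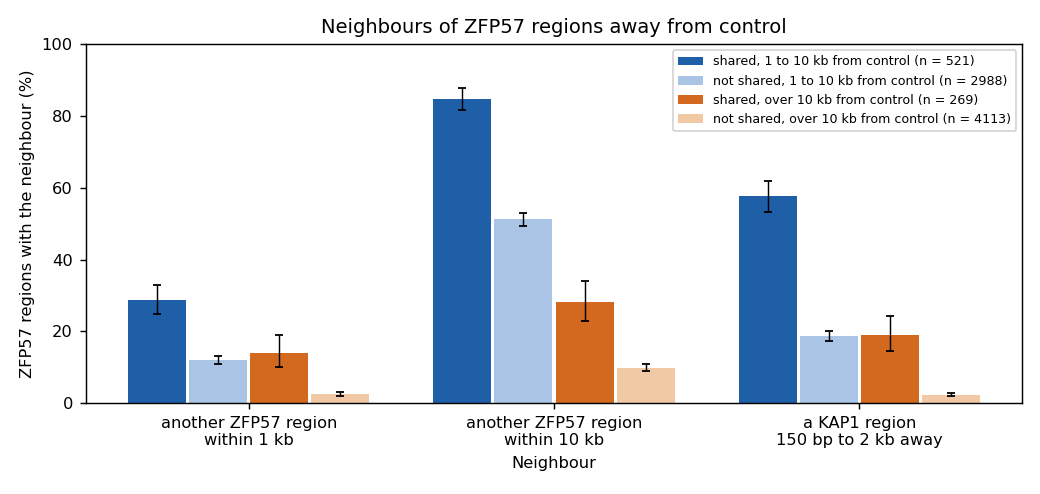
Percentage of ZFP57 regions with each kind of neighbour, for regions shared with KAP1 (dark) and not shared (light), 1 to 10 kb (blue) and over 10 kb (orange) from the control list; bars start at 0 and error bars are exact 95% binomial intervals. For each neighbour the shared bar is above the bar of the regions that are not shared in the same band of distance. Within a band the distances are not matched. Because the rule split the groups by nearby KAP1, the KAP1 bars are not independent of it.

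Shared regions occurred on all 19 autosomes, X and Y, and on none of the mitochondrial sequence. Chromosome 13 had the most (91), followed by chromosomes 7 (90) and 4 (78). These 3 held 32.8% of the shared regions and 20.7% of the ZFP57 regions clear of the control. As a share of the latter, autosomes ranged from 2.67% on chromosome 18 (6 of 225, exact interval 0.985 to 5.71%) to 18.7% on chromosome 13 (91 of 487, 15.3 to 22.4%), with a median of 8.55%. On X it was 37.4% (43 of 115, 28.5 to 46.9%) and on Y 42.9% (6 of 14, 17.7 to 71.1%). All 6 on Y lay between 1 and 2 Mb, a stretch with 118 control regions. Of those on X, the stretches of 1 Mb from 120, 121 and 122 Mb held 11, 5 and 5.

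Counted beyond 10 kb from the control, the order changed. Chromosome 13 then had 6.16% (13 of 211), chromosome 4 had 4.80% and chromosome 7 had 6.51%, near the autosomal median of 5.92%. The highest autosome was chromosome 14 with 12.1% (28 of 231, 8.21 to 17.04%). Its 28 regions include the 2 ZFP57 regions at each of 4 loci of identical layout described below. The interval counts them as separate, so it is narrower than the true uncertainty. On X the share was 22.5% (9 of 40, 10.8 to 38.5%), and on Y 1 of 4 regions was shared.

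**Figure D5:**
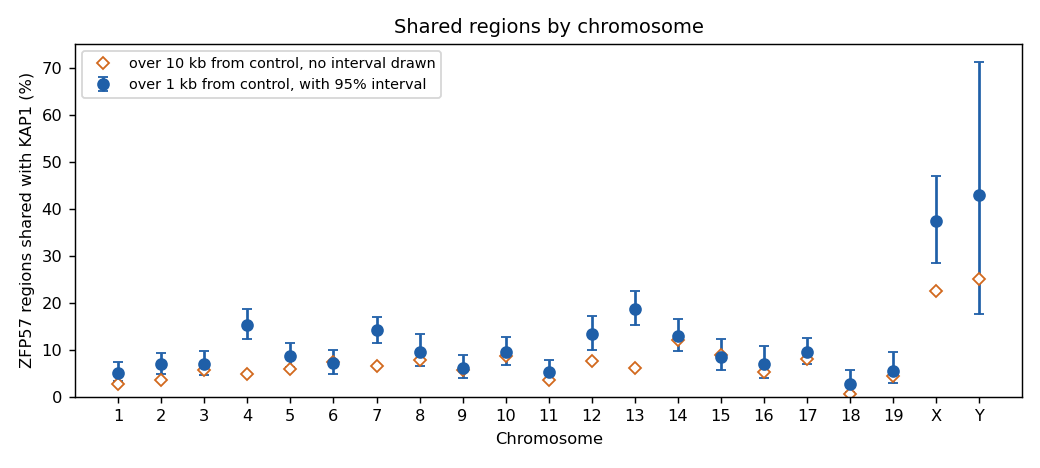
Percentage of ZFP57 regions shared with KAP1 on each chromosome, over 1 kb from the control (filled, with exact 95% binomial intervals) and over 10 kb (open diamonds). X stands above every autosome in both, and the values of chromosomes 4, 7 and 13 are lower among regions over 10 kb from the control.

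Shared regions fell into 399 windows of 1 Mb, and 275 of these windows held only 1. At the other end, 12 windows held 10 or more and together 21.5% of the shared regions. Counts below are out of the ZFP57 regions clear of the control in each window. The windows were picked by these counts, and the share over the whole list was 10.01%. The fullest was chromosome 4 from 146 to 147 Mb with 26 of 42, next to the window from 145 to 146 Mb with 19 of 30. Chromosome 13 had 5 of the 12, from 12 to 13 Mb (10 of 21), 13 to 14 Mb (19 of 44), 62 to 63 Mb (11 of 25), 65 to 66 Mb (10 of 16) and 66 to 67 Mb (16 of 22). The others were chromosome 5 from 146 Mb (14 of 44), chromosome 7 from 46 Mb (11 of 24) and 50 Mb (12 of 34), chromosome 17 from 17 Mb (11 of 27) and X from 120 Mb (11 of 18). Each of the 12 also held between 61 and 526 control regions. In the 122 windows of the genome with 50 or more control regions, 22.2% of the ZFP57 regions clear of the control were shared, compared with 7.04% outside them.

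Some shared regions recurred at exactly repeated distances. On chromosome 14, 4 loci beginning at 5510865, 5712046, 5892581 and 6696095 each held 2 ZFP57 regions 108 bp apart and 1 KAP1 region in an identical layout, 1 of them in mirror image. This was the only layout of 3 or more regions that occurred at 3 or more loci. On chromosome 4, 3 ZFP57 regions at 145886137, 145899005 and 145925578 each had a counterpart exactly 545355 bp away, and each counterpart had the same offset to its KAP1 region (47, 16 and 8 bp). On chromosome 17, those at 17231362, 17231727 and 17238901 had counterparts 57211 bp away, with equal KAP1 offsets of 73, 119 and 24 bp. Only exact spacings seen for 3 or more pairs on 1 chromosome were listed, so near-equal spacings are left out. On chromosome 3, for example, the nearly evenly spaced ZFP57 regions at 113078102, 113110714, 113143316 and 113175921 all lay 41 bp from their KAP1 midpoint. Such sets count as separate regions and loci in all numbers above, and whether they are copies of 1 sequence was not tested.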

How the data were processed

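ChIP-seq was carried out on mouse ES cells in 3 libraries, 1 per group: HA antibody without a transgene (control), HA antibody with HA-tagged ZFP57, and KAP1 antibody. Per the submitters' processing notes, Bowtie and build mm9 were used; for the peak caller, its threshold and reads mapping to several places the sources give nothing. The deposited lists hold a chromosome, a start and an end per region, all 150 bp wide and without a score or header. Starts were converted to count from 1.

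Members, locus lists and comparisons were chosen with earlier results of these data known. Starts were compared on the same chromosome. Loci joined shared regions of both lists lying within 5 kb. Positions of 22 imprinted loci were written from general knowledge of mm9 and extended by 5 kb; all 27 of their gene symbols were found on the same chromosome in the RefSeq table of GRCm38, whose coordinates were not used. Loci named were those with 3 or more shared ZFP57 regions, those at imprinted windows, the 5 farthest from the control, the 5 with most shared KAP1 regions, and repeated layouts. The rule for repeated layouts was narrowed to loci of 3 or more regions, because 81 layouts occurred 3 or more times and for 80 of them the layout was only the offset of a single pair. Loci with 3 or more KAP1 regions far from the control, the 1 Mb windows and repeated spacings were named after their values were seen. Neighbours in the 5 narrower bands of distance were counted after the 2 wide bands had been seen. Shares carry exact (Clopper-Pearson) 95% intervals for counting error only. With 1 library per group no test was made. The code was tested on simulated lists. Python 3.11.15, numpy 2.4.6, pandas 2.3.3, scipy 1.17.1 and matplotlib 3.10.9 were used.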

Additional observations from a re-analysis of the deposited data

How the results depend on the processing

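Leaving out a replicate was not possible. No paired analysis was possible because there is 1 sample in each group. A stricter threshold was not run, since the lists hold no score. Removing a region only where it overlapped a control region gave 1957 shared regions (17.4%) in 1357 loci. Their median distance to the control was 679 bp, and 60.6% had another region of the same list within 1 kb. Removing those within 5 kb of a control start gave 380 regions (6.95%) in 357 loci, a median of 18821 bp and 12.4% with such a neighbour, and within 10 kb 269 (6.14%) in 249 loci, 33683 bp and 14.1%. The 3 leading chromosomes then held 26.1% and 25.3% of shared regions. Without the 1 Mb windows of 50 or more control regions there were 447 regions (7.04%) in 414 loci, with 10958 bp, 16.6% and 24.4% for the same 3 values. Requiring a KAP1 start less than 76 bp away gave a share of 8.03%, 85.6% of pairs within 50 bp and 0 repeated layouts of 3 or more regions; allowing less than 500 bp gave 12.1% and 57.0%. Part of each change follows from the rule itself. Counted from the KAP1 list, the share was 11.2%, with a same-list neighbour within 1 kb for 30.9%. The number of imprinted windows with a shared region stayed between 13 and 18 under all 11 alternatives run for it. Each alternative used the same loci, which were named with the lists in view. Alternatives for the median distance, neighbours, chromosomes and layouts were added after seeing the data; the others were planned. Unknown depth and threshold limit every count.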
